A study of Mus musculus with 4 samples.

Results

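The 9 genes described here encode subunits of AP-1, a dimeric transcription factor of the basic leucine zipper (bZIP) class. They are Fos, Fosb, Fosl1 and Fosl2 of the FOS family, Jun, Junb and Jund of the JUN family, the ATF family gene Atf3 and the small MAF gene Maff. They were taken by symbol from 53379 annotated mouse genes, and all 9 were among the 13792 genes with enough reads to be tested. RNA was sequenced in bulk from malignant cells sorted out of subcutaneous MC38 tumors. The host mice were of the C57BL/6 strain, each inoculated with 50000 MC38-GFP+ cells, a mouse colon adenocarcinoma line that carries GFP. All mice were given anti-PD-1 antibody at a sub-optimal 100 µg a dose on days 12, 15, 18 and 22, and no untreated group was analysed here. There were 2 libraries from tumors labelled responder and 2 from tumors labelled non-responder. The labels state neither how response was scored nor whether replicates are separate mice. The p-values therefore reflect only how far replicate libraries differ, and that spread could be technical.

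FOS proteins bind DNA only as a partner of another bZIP protein, typically a JUN protein, whereas JUN proteins also pair with each other. FOS-JUN dimers bind the palindrome-like motif TGACTCA, and dimers with ATF proteins favor the longer cyclic AMP response element. Fos, Fosb, Jun, Junb, Atf3 and Maff are immediate early genes, switched on within minutes by growth factors, stress or tissue handling and then rapidly silenced, and are called fast-induced below. Fosl1 and Fosl2 are induced later and last longer and Jund is largely constitutive, and these 3 genes are called stable below. In carcinoma cells AP-1 is known for driving genes of proliferation, invasion and matrix degradation. On mm10 (GRCm38) the FOS genes lie apart, Fos (ENSMUSG00000021250) at chr12:85473890-85477273 on the plus strand, Fosb (ENSMUSG00000003545) at chr7:19302696-19310051 on the minus strand, Fosl1 (ENSMUSG00000024912) at chr19:5447703-5455945 on the plus strand and Fosl2 (ENSMUSG00000029135) at chr5:32135801-32157842 on the plus strand. The JUN genes are Jun (ENSMUSG00000052684) at chr4:95049034-95052222 on the minus strand, Junb (ENSMUSG00000052837) at chr8:84974484-84978718 on the minus strand and Jund (ENSMUSG00000071076) at chr8:70698949-70700616 on the plus strand. The remaining genes are Atf3 (ENSMUSG00000026628) at chr1:191170296-191218039 on the minus strand and Maff (ENSMUSG00000042622) at chr15:79347541-79359072 on the plus strand.

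The promoters of the fast-induced genes are shown as a description. All of these genes but Maff were highest in responder replicate 2, as were the stable genes Fosl1 and Jund. A link between promoter letters and these levels was not tested. RefSeq (GRCm38.p6) gave a promoter for 8 of the 9 genes. In 5 of the 6 fast-induced genes the RefSeq start lay within 30 bases of the start of the gene in the counting annotation, and for these the 120 bases before the start and the first 20 after it are printed 5′ to 3′. Capitals mark TGACG, the core of the cyclic AMP response element, on either strand, and TGANNTCA, its 8-base palindromic frame, which overlaps TGACG where the letters are TGACGTCA.
Fos, chr12:85473770-85473909, plus strand: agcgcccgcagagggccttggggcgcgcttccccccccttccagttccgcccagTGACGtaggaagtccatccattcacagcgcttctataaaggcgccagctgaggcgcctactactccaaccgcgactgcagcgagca
Fosb, chr7:19310026-19310165, minus strand: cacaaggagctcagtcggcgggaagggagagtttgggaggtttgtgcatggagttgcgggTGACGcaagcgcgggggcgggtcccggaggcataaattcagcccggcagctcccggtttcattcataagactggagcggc
Jun, chr4:95052203-95052342, minus strand: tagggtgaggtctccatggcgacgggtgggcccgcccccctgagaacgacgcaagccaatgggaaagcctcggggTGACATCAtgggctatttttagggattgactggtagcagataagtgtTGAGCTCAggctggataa
Junb, chr8:84978729-84978868, minus strand: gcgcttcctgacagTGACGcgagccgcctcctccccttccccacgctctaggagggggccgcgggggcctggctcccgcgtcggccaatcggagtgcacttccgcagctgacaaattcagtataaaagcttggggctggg
Maff, chr15:79347400-79347539, plus strand: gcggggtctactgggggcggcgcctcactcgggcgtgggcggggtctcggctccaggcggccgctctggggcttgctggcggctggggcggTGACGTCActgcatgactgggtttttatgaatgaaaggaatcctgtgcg

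The full 300 bases searched ran from 250 bases before the start to 50 after it. Within these bases of the 5 promoters, TGACG was present in 4, all but that of Jun, and TGANNTCA was present in those of Jun and Maff. Among 32544 distinct promoter sequences of the same length, 20.9% held TGACG and 13.9% held TGANNTCA. The AP-1 motif TGACTCA, held by 5.19% of all promoters, was in none of the promoters of the 8 genes. The CArG box, the serum response factor motif, was in none of them either and in 1.64% of all promoters. Sites farther from the start were not searched, so a motif absent here can still lie outside these 300 bases. For Atf3, Fosl2 and Jund the RefSeq start lay at 34706, 671 and -1210 bases from the start of the counted gene. For these 3 genes the search therefore did not cover the bases around that start. A match is a run of letters in this window and no measure of binding.

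Library totals were 20458601 and 18447041 counts in responder replicates 1 and 2, against 21754063 and 21670040 counts in non-responder replicates 1 and 2. Mitochondrial transcripts took 3.07% to 5.61% of counts. Markers of colon epithelium were nearly absent from the sorted cells: of 12 genes, 11 stayed under 1 CPM in every library, Epcam, Krt8, Krt18 and Krt19 among them, and Krt20 had no read. Markers of leukocytes (16 genes) summed to 14.6 and 68.0 CPM in responder libraries, against 62.8 and 172 CPM in non-responder libraries. Macrophage and monocyte markers (16 genes) summed to 22.8 and 163 CPM in responder libraries, against 160 and 435 CPM in non-responder libraries. All 16 leukocyte markers and the 15 tested macrophage markers had a lower mean in responder cells, but responder replicate 2, where Fos was highest, had sums close to those of non-responder replicate 1. At an unadjusted p under 0.05, only 1 of each list was lower, where 3.63% of all tested genes were, and none passed the adjusted test. The median log2 fold changes were -1.686 and -1.738 with all libraries, and -0.581 and -0.745 without non-responder replicate 2. Markers of neutrophils (8 genes, with Camp and Ly6g at 0) summed to at most 1.66 CPM and those of T and NK cells (12 genes) to at most 3.72 CPM in any library. Fibroblast markers (16 genes) summed to 11180 and 9631 CPM in responder libraries, against 12500 and 18360 CPM in non-responder libraries. Thy1 and Pi16 stayed under 1 CPM in every library. The 2 most abundant were Col3a1, with 6897 and 5792 CPM in responder libraries, against 7597 and 13390 CPM in non-responder libraries, and Col6a3. Col6a3 overlapped between the groups, with 2528 and 2176 CPM in responder libraries, against 2475 and 2052 CPM in non-responder libraries. Of the 14 tested fibroblast markers, 12 had a lower mean in responder cells. At an unadjusted p under 0.05, 7 were lower and none higher, where 3.63% and 2.57% of all tested genes were. In 8 of the 14 both responder libraries lay below both non-responder libraries, as in 2449 of all 13792 tested genes. Col1a1, which encodes a chain of type I collagen, had 112 and 92.8 CPM in responder libraries, against 240.0 and 278 CPM in non-responder libraries. Endothelial markers (10 genes) summed to 14.1 and 16.8 CPM in responder libraries, against 26.9 and 29.6 CPM in non-responder libraries. Of the 10, 7 stayed under 1 CPM in every library. Of the 3 tested, Pecam1 and Flt1 had a lower mean in responder cells and Cdh5 a higher one. Most of the sum was Pecam1, with 6.35 and 11.6 CPM in responder libraries, against 17.8 and 25.5 CPM in non-responder libraries. The part of other cell types in the AP-1 levels was not tested. In bulk RNA, fewer cells of a type, less RNA per cell and expression of a marker by the tumor cells themselves cannot be told apart.

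Responder tumor cells had more transcript of 8 of the 9 AP-1 genes on average, and no gene passed the test. The median log2 fold change, responder over non-responder, was 0.58 over the 9 genes, beside -0.01 over all tested genes, of which 48.9% were above 0. None passed an adjusted p of 0.05 in edgeR's quasi-likelihood test, as was so for 0% of all tested genes. At an unadjusted p under 0.05 there were 2 of the 9, Junb and Atf3, both higher, where 2.57% of all tested genes were higher at that level and 3.63% lower. In both directions together 856 tested genes lay under an unadjusted p of 0.05. DESeq2 and limma-voom called none of the 9 either, and they called 64 and 0 genes in all. In DESeq2, run on 29612 genes without the low-count filter, 3 of the 9 were higher at an unadjusted p under 0.05, where 0.844% of those genes were. In limma-voom, run on 13792 genes as edgeR was, 2 of the 9 were, where 2.71% of those genes were. The DESeq2 share is thus over a larger set with many low-count genes and is not comparable with the other shares. In Fos, Junb, Atf3, Maff and Fosl1 both responder libraries lay above both non-responder libraries, 5 of 9 genes, where 18.8% of all tested genes did so.

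**Figure D1:**
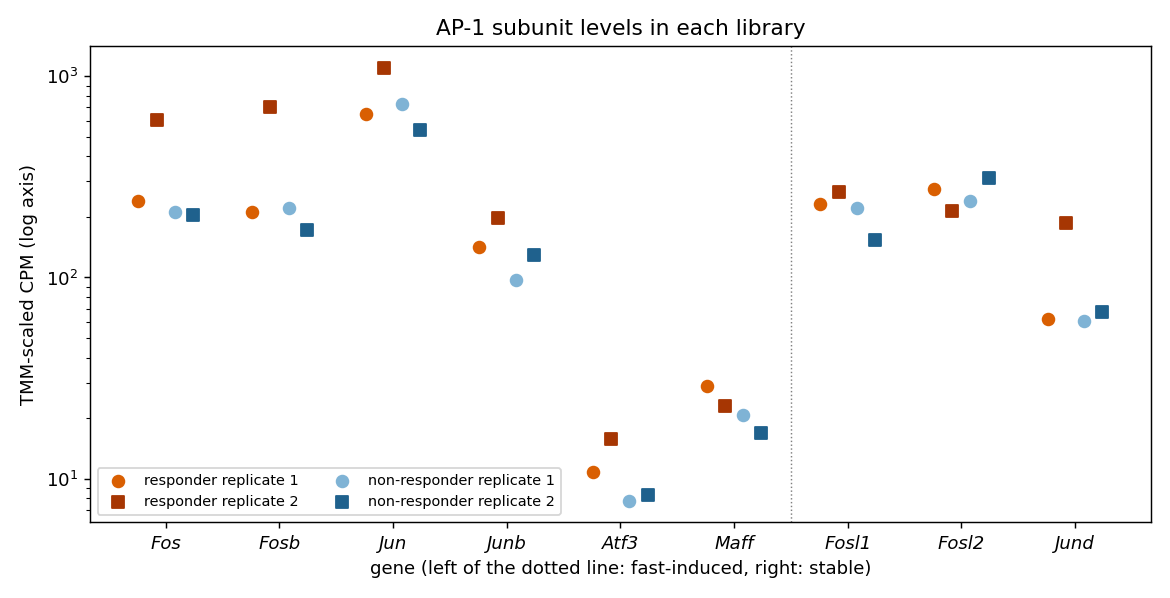
Level of each AP-1 gene in each library as TMM-scaled CPM (log axis), responder libraries in orange and brown, left of non-responder libraries in blue; circles are replicate 1 and squares replicate 2. Responder replicate 2 is the highest library for Fos, Fosb, Jun, Junb, Atf3, Fosl1 and Jund, and its level of Fos, Fosb and Jund is far from the 3 other libraries.

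Fos, the prototype immediate early subunit, had 239.7 and 607 CPM in responder replicates 1 and 2, against 213 and 203 CPM in non-responder replicates 1 and 2. The groups did not overlap, but only responder replicate 2 stood well apart. Its log2 fold change was 1.03 (SE 0.44, adjusted p = 0.796), or 2.04-fold, and the means were 423 ± 260 CPM in responder and 208 ± 6.51 CPM in non-responder cells (SD, n = 2 each).

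Fosb, the second fast-induced FOS subunit, whose shorter splice form is a long-lived protein in brain, had 211 and 700.1 CPM in responder replicates 1 and 2, against 222 and 172 CPM in non-responder replicates 1 and 2. Responder replicate 1 lay between the non-responder libraries, so the groups overlapped. The log2 fold change of 1.21 was the largest of the 9 and had the largest error (SE 0.63, adjusted p = 0.836).

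Jun, the JUN subunit with the strongest activation domain and a target of the JNK kinases, was the most abundant member, with 651 and 1105 CPM in responder replicates 1 and 2, against 731 and 539.5 CPM in non-responder replicates 1 and 2. Its groups overlapped (log2 fold change 0.47, SE 0.30, adjusted p = 0.844). Junb, which pairs with FOS proteins but activates more weakly than Jun, had 142 and 197 CPM in responder replicates 1 and 2, against 96.7 and 129.8 CPM in non-responder replicates 1 and 2. Both responder libraries lay above both non-responder libraries, by little at the nearest pair (log2 fold change 0.58, SE 0.23, adjusted p = 0.766).

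Atf3, a stress-induced bZIP factor that represses as a homodimer, had 10.8 and 15.8 CPM in responder replicates 1 and 2, against 7.78 and 8.30 CPM in non-responder replicates 1 and 2. Its non-responder libraries were close to each other and both responder libraries lay above them (log2 fold change 0.72, SE 0.27, adjusted p = 0.749). It had the smallest p of the 9 genes and was rank 509 of the tested genes by p. Maff, a small MAF protein that lacks an activation domain and pairs with CNC factors such as NRF2, had 28.8 and 22.8 CPM in responder replicates 1 and 2, against 20.8 and 16.9 CPM in non-responder replicates 1 and 2. Its groups did not overlap, and it was the one fast-induced gene that was lower in responder replicate 2 than in responder replicate 1 (log2 fold change 0.45, SE 0.22, adjusted p = 0.796).

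Among the stable genes, Fosl1 (FRA-1, a FOS subunit without the Fos activation domain and linked to invasion of carcinoma cells) had 231 and 265 CPM in responder replicates 1 and 2, against 221 and 153 CPM in non-responder replicates 1 and 2. The groups were separate only by the narrow gap between responder replicate 1 and non-responder replicate 1 (log2 fold change 0.41, SE 0.23, adjusted p = 0.824). Fosl2 (FRA-2), the other late FOS subunit, had 275.5 and 214.5 CPM in responder replicates 1 and 2, against 241 and 312 CPM in non-responder replicates 1 and 2. It was the only one of the 9 with a lower mean in responder cells, and its groups overlapped (log2 fold change -0.17, SE 0.22, adjusted p = 0.925). Jund, usually the constitutive subunit, had 62.1 and 187 CPM in responder replicates 1 and 2, against 60.8 and 67.2 CPM in non-responder replicates 1 and 2. Responder replicate 1 lay between the non-responder libraries, and responder replicate 2 was far above all 3 (log2 fold change 0.96, SE 0.57, adjusted p = 0.851).

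The responder libraries differed widely from each other in Fosb, Jund and Fos, the genes with the largest fold changes, and less so in Jun, Atf3 and Junb. The log2 ratio of CPM in responder replicate 2 over responder replicate 1 was 1.73 for Fosb, 1.59 for Jund, 1.34 for Fos and 0.76 for Jun. Counted on log2(CPM + 1), 0.348%, 0.457%, 0.689% and 2.31% of tested genes had a ratio at least as high. The same ratio between the non-responder libraries, replicate 2 over replicate 1, was -0.37 for Fosb, 0.14 for Jund, -0.06 for Fos and -0.44 for Jun. The ratio between responder libraries was 0.56 for Atf3, 0.47 for Junb and 0.20 for Fosl1. Maff and Fosl2 went the other way between responder libraries, at -0.33 and -0.36.

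Without responder replicate 2 the log2 fold change was 0.21 for Fos, 0.10 for Fosb, 0.04 for Jun, 0.33 for Junb and 0.42 for Atf3. That of Jund turned to -0.04, that of Fosl2 came to -0.003, that of Fosl1 was 0.31 and that of Maff was 0.61. The median of the 6 fast-induced genes was then 0.27, and that of the 3 stable genes, -0.003, was 0.41 with all libraries and 0.17 to 0.70 with another library left out. In that fit 7 of the 9 were above 0 and none had an unadjusted p under 0.05, a level that 1.07% of genes reached as higher. Without responder replicate 1, Fos, Fosb and Jund passed (log2 fold changes 1.54, 1.82 and 1.55, adjusted p = 0.00786, 0.000348 and 0.000513), in a fit that called 0.459% of genes and in which 1 library stands for the responders and is assumed to vary like the non-responders. In the same fit the log2 fold change of Jun was 0.79, that of Fosl2 -0.37 and that of Maff 0.27. Leaving out non-responder replicate 1 gave 0.71 for Jun, 0.70 for Fosl1 and -0.34 for Fosl2, and leaving out non-responder replicate 2 gave 0.26, 0.17 and 0.02 for the same genes. Fos also passed when no filter on low counts was used (adjusted p = 0.00237), a setting that called 0.716% of genes.

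**Figure D2:**
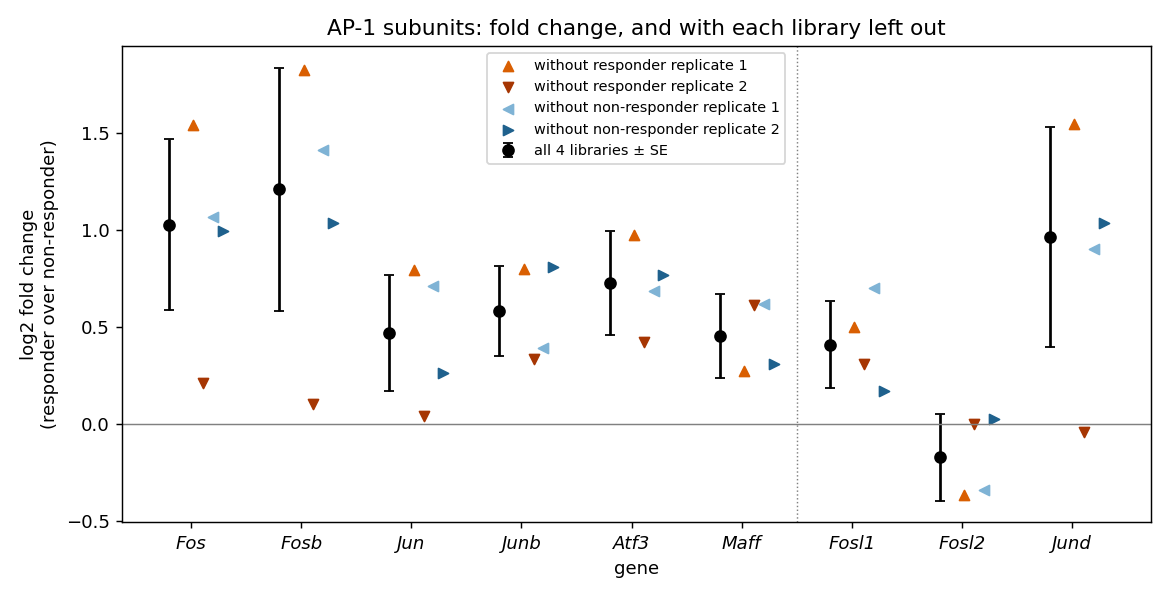
Log2 fold change of each AP-1 gene, responder over non-responder, from all 4 libraries (black, with its SE) and with each library left out (triangles). The downward triangles, which leave out responder replicate 2, lie at -0.04 to 0.21 for Fos, Fosb, Jun, Fosl2 and Jund and at 0.31 to 0.61 for Junb, Atf3, Maff and Fosl1.

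The fast-induced genes were set against the stable ones within each library. The mean log2(CPM + 1) of the 6 fast-induced genes minus that of the 3 stable genes was -0.549 and -0.274 in responder replicates 1 and 2, against -0.679 and -0.785 in non-responder replicates 1 and 2. Both responder libraries were above both non-responder libraries in this measure, by 0.320 on average (-0.412 ± 0.194 in responder and -0.732 ± 0.075 in non-responder libraries, SD, n = 2 each), and as a score over chosen genes it has no test. Leaving out responder replicate 2 gave a difference of 0.183, and leaving out responder replicate 1 gave 0.458. It hangs on which genes count as stable: set against Jund alone, the fast-induced mean was 0.789 and -0.043 in responder replicates 1 and 2, against 0.592 and 0.341 in non-responder replicates 1 and 2, and the difference turned to -0.094. In responder replicate 2 Jund was high along with the fast-induced genes, while Fosl2 was not.

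Levels of different genes were compared per length, in TPM, read counts divided by exon length and scaled to the same sum in every library. The length covers all annotated exon bases of a gene, 6243 for Fosb and 9680 for Fosl2. Where the expressed transcripts are shorter, TPM is too low, so the order of genes, family sums and shares depend on these lengths. Jun was the most abundant of the 9 in every library, with 759.8 and 1256 TPM in responder libraries, against 811 and 653 TPM in non-responder libraries. Fos and Fosl1 came next, at 492 and 468 TPM on average over the 4 libraries, and their order was not fixed: Fosl1 was above Fos in 3 libraries and Fos was above Fosl1 in responder replicate 2 (936 against 564 TPM). Junb, Jund and Fosb averaged 227, 207.5 and 191 TPM, with ranges over the libraries that overlapped. Fosl2 averaged 99.7 TPM, within reach of the lowest Fosb libraries. Maff and Atf3 averaged 38.8 and 18.2 TPM and were the lowest pair in every library.

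As families, FOS and JUN transcripts were nearly equal in amount in each library when taken per annotated length. The 4 FOS genes summed to 1115 and 1987 TPM in responder replicates 1 and 2, against 991.6 and 911.5 TPM in non-responder replicates 1 and 2. The 3 JUN genes summed to 1128 and 1974 TPM in responder replicates 1 and 2, against 1089 and 1026 TPM in non-responder replicates 1 and 2. The FOS to JUN ratio was 0.989 and 1.01 in responder replicates 1 and 2, against 0.911 and 0.888 in non-responder replicates 1 and 2. So in responder replicate 2 both sums were higher by a like factor, whereas responder replicate 1 lay close to the non-responder libraries in both.

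The makeup of the FOS family was unlike the others in responder replicate 2. Fosl1 was the largest share of FOS transcripts in 3 libraries, with 45.2% in responder replicate 1, against 46.2% and 38.1% in the non-responder libraries, and it was 28.4% in responder replicate 2. Fos was 34.0% and 47.1% of the family in responder replicates 1 and 2, against 32.3% and 36.6% in non-responder replicates 1 and 2. Fosb was 11.3% and 20.5% in responder replicates 1 and 2, against 12.7% and 11.7% in non-responder replicates 1 and 2. Within the JUN family Jun held 67.3% and 63.6% in responder replicates 1 and 2, against 74.5% and 63.6% in non-responder replicates 1 and 2. Jund held 12.3% and 20.6% in responder replicates 1 and 2, against 11.8% and 15.2% in non-responder replicates 1 and 2.

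**Figure D3:**
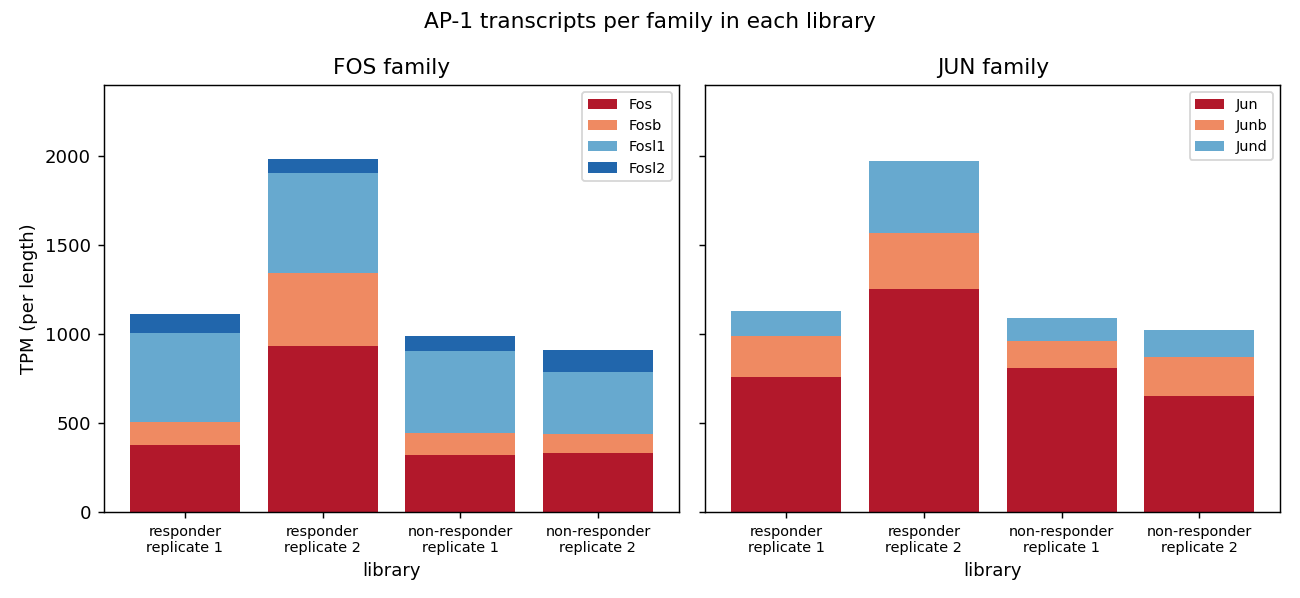
Stacked TPM of the FOS family (left) and JUN family (right) genes in each library, responder libraries first. The stacks reach 1987 and 1974 TPM in responder replicate 2 and lie between 911.5 and 1128 TPM in the 3 other libraries.

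The 9 genes also differ in the letters of their 3′ untranslated regions, where the pentamer ATTTA is the core of the AU-rich elements through which many immediate early messages are rapidly degraded. Counted in 1 principal GENCODE transcript per gene, Fos had 4 copies in 815 bases, or 4.91 per kb. Junb had 4.12, Maff 3.28, Jun 3.24 and Atf3 2.53 copies per kb. The stable genes had fewer per kb, with 1.88 in Jund, 1.72 in Fosl2 and 1.57 in Fosl1, and Fosb had the lowest density, with 0.466, a single copy in 2145 bases. The median over 11270 tested genes with at least 100 bases of 3′ untranslated region was 1.39 per kb. By number of copies the classes were not separate, since the stable gene Fosl2 had the most, 8 in 4653 bases. The longer form TTATTTAWW, with W for A or T, occurred 2 times in Maff, 1 time each in Fos and Fosl2, and in none of the other members. Of the genes with the highest ratios between the responder libraries, Fos had the highest density of the 9, Fosb the lowest, and Jund one in between.

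Most other immediate early genes had a higher mean in responder cells. Of 24 tested immediate early genes outside AP-1, 22 had a log2 fold change above 0 (median 0.58), where 48.9% of all tested genes did. At an unadjusted p under 0.05, 9 were higher and none lower, where 2.57% and 3.63% of all tested genes were, and none passed the adjusted test. The median was 0.62 without responder replicate 2. Nr4a1, an orphan nuclear receptor gene, had 76.1 and 66.96 CPM in responder libraries, against 31.3 and 28.3 CPM in non-responder libraries. Egr1, a zinc finger factor induced through the same serum response pathway as Fos, had 549.6 and 815.6 CPM in responder libraries, against 316 and 244 CPM in non-responder libraries. In both genes the responder libraries stood clear of the non-responder libraries, but Nr4a1, Egr1 and Egr2 were named for the smallest p of the list. Their separation follows from that choice and cannot be set against the AP-1 genes. Of the 24 genes, 14 had both responder libraries above both non-responder libraries, beside 18.8% of all tested genes, and 2 had both below. Egr2, a relative of Egr1, had 8.18 and 7.07 CPM in responder libraries, against 2.51 and 3.18 CPM in non-responder libraries. Klf6, the most abundant of the list after Egr1, overlapped between the groups, with 292 and 388 CPM in responder libraries, against 309 and 252 CPM in non-responder libraries. Of 13 tested heat-shock genes, which encode chaperones induced by stress, 12 were above 0 (median 0.36), where 48.9% of all tested genes were. Beside the same 2.57% and 3.63% of all tested genes, 4 of the 13 were higher and none lower at an unadjusted p under 0.05. None of the 13 passed the adjusted test. Their median was 0.67 without non-responder replicate 1 and 0.17, with 10 of 13 above 0, without non-responder replicate 2. Dnajb1, an HSP40 co-chaperone, had 119 and 196 CPM in responder libraries, against 90.1 and 96.3 CPM in non-responder libraries. Hspa1b, an inducible HSP70, had 61.7 and 156 CPM in responder libraries, against 20.1 and 30.8 CPM in non-responder libraries. Both were named for the smallest p of the list, and their separation follows from that choice. Hsp90ab1, the most abundant of the list, had 3266 and 3416 CPM in responder libraries, against 2997 and 2586 CPM in non-responder libraries. The part of these stress genes in the AP-1 levels was not tested.

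Genes known to be driven by AP-1 in various cells were mixed. Of 21 tested, 14 were above 0 and 7 below (median 0.33). At an unadjusted p under 0.05, 5 were higher and 2 lower, where 2.57% and 3.63% of all tested genes were, and none passed the adjusted test. The median was 0.10 without responder replicate 1 and 0.18 without non-responder replicate 2. Plaur, the urokinase receptor, had 46.2 and 55.8 CPM in responder libraries, against 31.4 and 27.6 CPM in non-responder libraries. Plau, urokinase itself, went the other way, with 0.149 and 0.681 CPM in responder libraries, against 3.57 and 3.99 CPM in non-responder libraries (adjusted p = 0.370). Ccnd1, cyclin D1, had 788.5 and 816 CPM in responder libraries, against 531 and 538 CPM in non-responder libraries, and Cd44, a hyaluronan receptor, had 1171 and 1251 CPM in responder libraries, against 964 and 830.5 CPM in non-responder libraries. In Plaur, Ccnd1 and Cd44 the responder libraries were close to each other. Plau and Plaur were named for a small p, which favors close libraries, and Ccnd1 and Cd44 for abundance. Their closeness therefore cannot be set against the spread of the AP-1 genes. Mmp3, Mmp10, Il6 and Areg were too low to be tested.

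The other bZIP genes that can pair with AP-1 subunits were balanced, with 12 of 22 above 0 and a median of 0.03. At an unadjusted p under 0.05 there were 2 higher and 1 lower (2.57% and 3.63% of all tested genes), and none passed the adjusted test. Maf, a large MAF factor, had 17.9 and 15.9 CPM in responder libraries, against 30.4 and 23.6 CPM in non-responder libraries. Mafk, a small MAF like Maff, had 32.6 and 31.6 CPM in responder libraries, against 19.4 and 23.2 CPM in non-responder libraries, and Cebpb had 47.9 and 55.4 CPM in responder libraries, against 36.3 and 40.1 CPM in non-responder libraries. Atf4, a factor of the integrated stress response, had 646.5 and 645 CPM in responder libraries, against 448.5 and 506 CPM in non-responder libraries (adjusted p = 0.796). Nfe2l1, the most abundant beside Atf4, had a log2 fold change of 0.04. Batf, Batf3, Nfe2 and Bach2, most of them known from blood cells, were too low to be tested.

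Genes of the MAP kinase cascades and of serum response factor, which feed the AP-1 promoters, were likewise balanced, with 10 of 26 tested above 0 and a median of -0.07. At an unadjusted p under 0.05, where 2.57% of all tested genes were higher and 3.63% lower, none of the 26 was higher and 1 was lower. That gene was Egfr, a growth factor receptor upstream of the cascade, with 61.6 and 39.7 CPM in responder libraries, against 116 and 95.5 CPM in non-responder libraries (log2 fold change -1.06, SE 0.24, adjusted p = 0.455). Elk3, a partner of serum response factor, had 115 and 99.1 CPM in responder libraries, against 182 and 124 CPM in non-responder libraries. Of 16 genes that degrade or protect AU-rich messages, 7 were above 0 and 9 below (median -0.10). Only Tia1, a binder of U-rich RNA, had an unadjusted p under 0.05, as lower, where 3.63% of all tested genes were lower. Leaving out non-responder replicate 1 turned that median to 0.04, and leaving out responder replicate 2 turned it to 0.01. Tia1 had 56.9 and 67.01 CPM in responder libraries, against 107.7 and 77.4 CPM in non-responder libraries. Zfp36, an immediate early gene whose protein binds AUUUA, had 62.6 and 118 CPM in responder libraries, against 53.6 and 60.5 CPM in non-responder libraries, while its relative Zfp36l1 had 362 and 306 CPM in responder libraries, against 689 and 351 CPM in non-responder libraries.

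**Figure D4:**
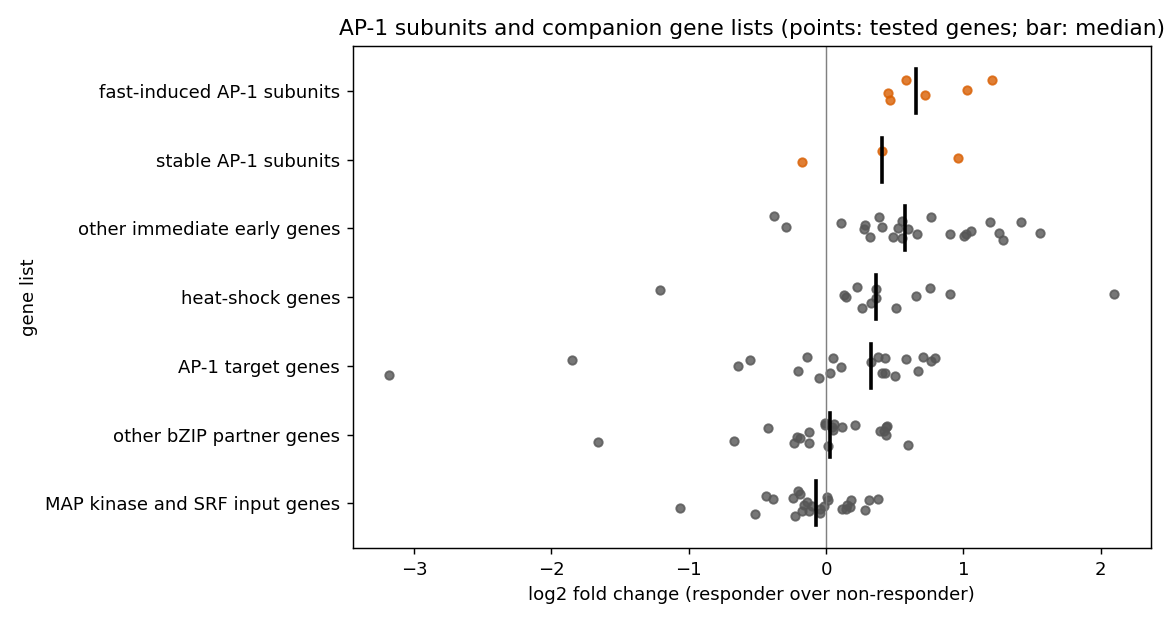
Log2 fold change, responder over non-responder, of the tested genes of each list, with the AP-1 genes in orange; the black bar is the median of a list. Medians are 0.65 for the 6 fast-induced and 0.41 for the 3 stable AP-1 genes, 0.58 for other immediate early genes, 0.36 for heat-shock genes, 0.33 for AP-1 targets, 0.03 for bZIP partners and -0.07 for MAP kinase and serum response factor genes; without responder replicate 2 the fast-induced median is 0.27, the stable one -0.003 and that of other immediate early genes 0.62.

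The genes outside AP-1 with the levels most like those of the fast-induced genes over the 4 libraries are given as a description, since so many genes ranked over so few libraries always yield near matches. Likeness was taken as the root-mean-square difference of mean-centred log2(CPM + 1) over the 4 libraries, among 10045 other genes with at least 5 CPM on average. The nearest to the mean of the 6 fast-induced genes were Gm42047 (0.051), Dnajb1 (0.078), Tuba1c (0.097), Arid5a (0.102), Rpl10 (0.109), Snhg1 (0.114), Zfp36 (0.118) and 5430416N02Rik (0.126). Rpl10 can share reads with its pseudogene copies, so its level is uncertain. Among the members themselves Atf3 (0.107) and Jun (0.160) were nearest to that mean, Jund was at 0.311, Maff at 0.399 and Fosl2 at 0.594. Nearest to Fos alone were Gm17024 (0.056), the HSP40 co-chaperone gene Dnaja1 (0.085) and the anti-proliferative gene Btg2 (0.179). Dnaja1 had 96.3 and 223 CPM in responder libraries, against 83.2 and 87.7 CPM in non-responder libraries.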

How the data were processed

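The deposited values are raw counts per gene, 1 file per library, made by the authors with featureCounts 1.6.1 in its reverse-stranded setting (2) on Ensembl release 91, per the file headers; STAR and mm10 (GRCm38) are named in the submitters' processing notes. Multi-mapping reads were not requested, so near-identical genes can be undercounted. On the opposite strand Jun shares 232 exon bases with Junos, Junb 173 with Prdx2 and Jund 877 with Gm11175, and the counting by strand keeps these apart. Of 53379 gene identifiers, 53274 matched a symbol.

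Responder against non-responder was fitted across all genes with edgeR 4.0.16 (R 4.3.3): filterByExpr at a minimum count of 10, TMM factors, robust quasi-likelihood test, group as the only term, Benjamini-Hochberg adjustment at 0.05. The SE is the log2 fold change over the square root of F. CPM is TMM-scaled; TPM uses the deposited exon lengths. No pair of libraries was near-identical (chi-square per degree of freedom 22.5 to 67.0).

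The members, the gene lists, the fast-induced and stable classes and the named-gene rule were chosen with earlier results of these data known. The rule named all 9 members, the 3 genes of smallest p and the 2 most abundant of each list, and the nearest profiles; of those, some are given only within list counts or are not reported here, and Mmp3, Mmp10, Il6, Areg, Batf, Batf3, Nfe2 and Bach2 are named as untested. Alternatives were DESeq2 1.42.0, limma-voom (limma 3.58.1), RLE or upper-quartile factors, totals without factors, no filter on low counts, a stricter filter, the replicate number as a block, and each library left out; list medians with a library left out were added after seeing the data. The fits were tested on simulated data in which every gene had the same dispersion. That run checks the fitting and does not copy the spread between these libraries, such as that of Fos.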

Additional observations from a re-analysis of the deposited data

How the results depend on the processing

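Direction held for Fos, Fosb, Jun, Junb, Atf3, Maff and Fosl1 under every normalization, tool, filter and left-out library. Fosl2 turned to 0.022 without non-responder replicate 2, and Jund to -0.041 without responder replicate 2. Over the left-out libraries the log2 fold change ran from 0.21 to 1.54 for Fos, from 0.10 to 1.82 for Fosb, from -0.04 to 1.55 for Jund and from -0.37 to 0.02 for Fosl2. Members higher at an unadjusted p under 0.05 numbered 2 in edgeR with all libraries (2.57% of all genes), 3 in DESeq2 (0.844%), 3 with the replicate block (5.22%), 4 without a low-count filter (2.51%), 0 without responder replicate 2 (1.07%) and 6 without responder replicate 1 (1.58%), the range over the left-out libraries; those past the adjusted threshold numbered 0 in edgeR with all libraries, 1 without a filter, and 0 to 3 over the left-out libraries. Over all genes the count past the threshold was 0 in edgeR with all libraries, 64 in DESeq2, 212 without a filter and 41 to 516 over the left-out libraries. DESeq2 and the fit without a filter covered 29612 genes, against 13792 in edgeR with all libraries, so their shares and counts are over a larger set. The fast-induced minus stable difference of 0.320 turned to -0.094 with Jund alone as the stable gene. With the replicate number as a block (replicate block) 32 genes passed, none of them an AP-1 member; same-numbered libraries had a correlation of deviations of 0.388, but with 2 pairs and no label that ties the numbers, this is no evidence of pairing. The cause of these changes was not tested. With 2 libraries per group, a spread such as that of Fos between responder libraries limits what can be passed; Atf3, at 161 to 302 counts a library, carries the most counting error.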
